A study of Mus musculus with 5 samples.

Results

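The kinetochore and spindle checkpoint genes are 42 genes whose products link chromosomes to the mitotic spindle and hold back anaphase until every chromosome is attached. They were taken as a fixed list of symbols, were each matched to 1 Ensembl identifier of the deposited count table, and were read in all 5 libraries of the series. Knl1 was listed there under the same identifier as its older symbol Casc5. The table holds 49671 genes, of which 14880 had at least 10 counts in at least 2 libraries, and all 42 were among those. By the role of the protein, 15 were placed in an inner centromere group, 19 in an outer kinetochore group and 8 in a checkpoint group.

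RNA-seq had been performed on hearts of C57BL6/J mice at postnatal day 2 (PN2). CharmeWT animals carry the intact locus of Charme, a long noncoding RNA of cardiac and skeletal muscle, and CharmeKO animals carry a polyadenylation signal inserted into it. The 3 CharmeWT libraries were each made from a pool of 9 hearts and the 2 CharmeKO libraries each from a pool of 3 hearts, so that genotype and hearts per pool cannot be told apart. A whole heart holds many cell types, and in such bulk RNA fewer cells of a type and less RNA per cell cannot be told apart either.

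The kinetochore is built in layers. CENP-A, a histone H3 variant, marks the centromere, and the constitutive centromere-associated network (CCAN), a set of CENP proteins, binds it through the whole cell cycle. On that base the Knl1, Mis12 and Ndc80 complexes assemble in mitosis and hold the plus ends of microtubules. Kinases and Mad and Bub proteins gather on unattached kinetochores and inhibit the anaphase promoting complex, the ubiquitin ligase that starts chromosome separation. Many of these genes are known to be transcribed mainly in cells about to divide, and heart muscle cells of mice leave the cell cycle soon after birth.

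Counts assigned to genes ran from 16721055 to 21646378 per pool. Charme itself had 810, 183 and 276 counts in CharmeWT pools 1 to 3 and 57 and 79 counts in CharmeKO pools 1 and 2. Both CharmeKO pools therefore lay below every CharmeWT pool. The CharmeKO pools also stood apart in other ways. Mitochondrial genes took 21.07% of the counts of CharmeKO pool 1 and between 9.68% and 11.15% of those of the other pools. Salivary gland markers summed to 325 CPM, counts scaled to library size, in CharmeKO pool 1, 24700 CPM in CharmeKO pool 2 and at most 0.152 CPM in a CharmeWT pool. Cardiomyocyte markers summed to between 39770 and 53040 CPM in the CharmeWT pools and between 43400 and 47850 CPM in the CharmeKO pools. Of these 6 markers Myh6 alone was lower in both CharmeKO pools than in any CharmeWT pool, and none was higher in both. It measured 14040 to 17240 CPM in CharmeWT and 7340 and 12520 CPM in CharmeKO. Of all 14880 genes tested, 2710 show that lower order. Of all genes tested, 227 rose in CharmeKO, which is 1.53%, and 78 fell, which is 0.524%, by edgeR's quasi-likelihood test at a Benjamini-Hochberg adjusted p under 0.1 with a mean level of at least 1 FPKM, the count scaled to exonic length and library size, in a genotype. A gene past those limits is termed called. In all 305 genes were called, against 2 without CharmeWT pool 1, 187 without CharmeWT pool 2, 0 without CharmeWT pool 3, 639 without CharmeKO pool 1 and 4606 without CharmeKO pool 2. With a correction for transcript length and GC content 361 genes were called, of which 227 were higher.

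Of the 42 genes, 20 rose in CharmeKO and none fell, beside the background of 1.53% of genes called higher. The estimate was higher in CharmeKO for 40 genes and lower for Cenpb and Mad1l1. Both CharmeKO pools lay above every CharmeWT pool for 38 genes, where 17.8% of all genes tested show that order, and below every CharmeWT pool for Cenpb. The median log2 fold change was 1.08 over the 42 genes and 0.02 over all genes tested. It ran from -0.30 for Cenpb to 2.04 for Cenpf. At an unadjusted p under 0.05 stood 35 of the 42, beside 2767 of the 14880 genes tested. Of the 22 genes that were not called, 18 had both CharmeKO pools above every CharmeWT pool.

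**Figure D1:**
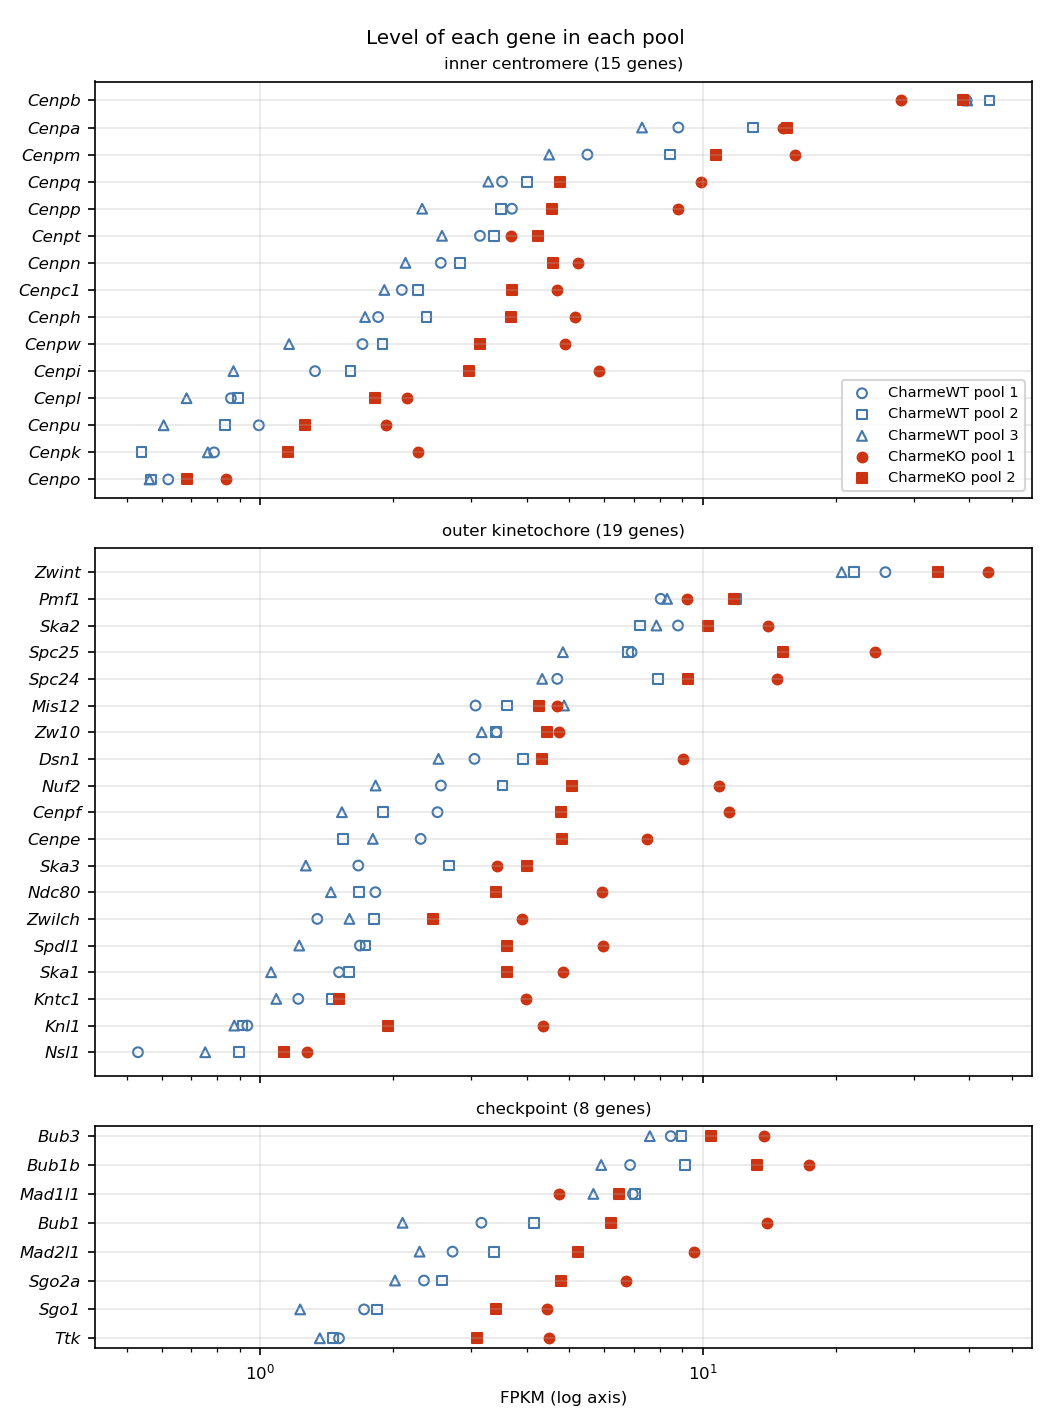
Level of each of the 42 genes in each pool, in FPKM on a log axis, with open blue symbols for the 3 CharmeWT pools and filled red symbols for the 2 CharmeKO pools. For 38 genes both red symbols lie to the right of every blue symbol, an order that 17.8% of all genes tested show. Cenpb and Mad1l1 are the genes with a lower estimate in CharmeKO.

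The count of calls rested on which pools were in the fit. Without CharmeWT pool 1 none of the 42 genes was called, with 1 of all genes called higher (0.00685%), 33 of the 42 and 2190 of all 14597 genes at an unadjusted p under 0.05 and a lowest adjusted p of 0.12 by the quasi-likelihood test. Without CharmeWT pool 3 none was called either, with 0 of all genes called (0%), 29 of the 42 at an unadjusted p under 0.05, 1315 of all genes at that level and a lowest adjusted p of 0.241. The median over the 42 genes was 1.08 without CharmeWT pool 1 and 0.95 without CharmeWT pool 3. Without CharmeWT pool 2 there were 16, beside 1.02% of all genes, with 6 of the 20 lost and Cenpm and Spc24 gained. Without CharmeKO pool 2, the pool with the most salivary gland RNA, 33 genes were called higher and Cenpb was called lower, beside 16.1% of all genes called higher. Without CharmeKO pool 1, the pool with the most mitochondrial RNA, 19 were called higher, beside 3.06% of all genes. Of the 20 genes, Zwint was the 1 that was lost there. The likelihood ratio test of edgeR and DESeq2 each called 30 of the 42 higher, beside 3.92% and 3.96% of all genes, and both kept the 20.

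**Figure D2:**
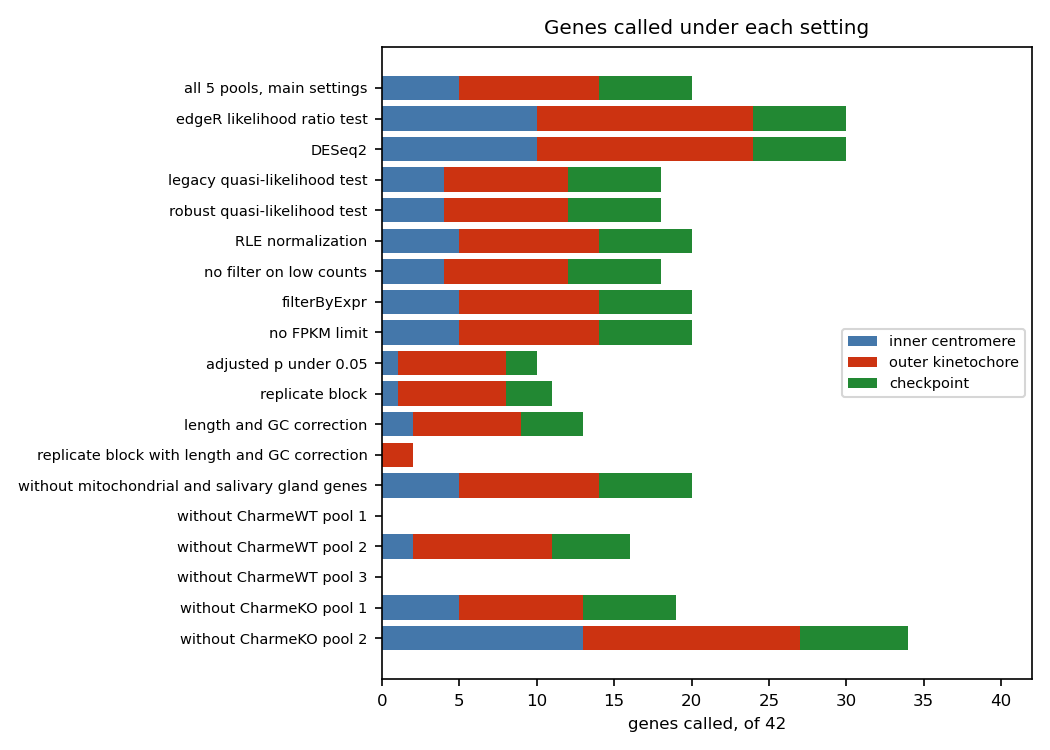
Number of the 42 genes called under each setting of the analysis, stacked by group, on an axis from 0. All pools give 20, the likelihood ratio test and DESeq2 give 30, and leaving out CharmeWT pool 1 or CharmeWT pool 3 gives 0.

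Promoters of these genes often hold short elements that are known from cell cycle genes, and the stretches below were chosen to show them. They come from 5 called genes that hold both a CHR and a CCAAT match, picked for holding them, and from Cenpb, the gene with the lowest estimate. RefSeq promoter windows on GRCm38.p6, from 250 bases before to 50 bases after a gene start, were at hand for 38 of the 42 genes, in 43 windows. Zwilch, Nsl1, Ska1 and Spc24 had none. Each stretch runs 5′ to 3′ on the strand of its gene, from 100 bases before to 30 bases after the start. Capitals mark the cell cycle genes homology region, CHR (TTTGAA or TTCGAA), and the CCAAT box. Matches were read on both strands, so that TTCAAA and ATTGG are the same elements on the opposite strand. The genes are Cenpf at chr1:189688057-189688186, Spc25 at chr2:69206184-69206313, Bub1 at chr2:127831830-127831959, Spdl1 at chr11:34833612-34833741 and Cenpb at chr2:131180038-131180167, all on the minus strand, and Ttk at chr9:83834589-83834718 on the plus strand.
Cenpf: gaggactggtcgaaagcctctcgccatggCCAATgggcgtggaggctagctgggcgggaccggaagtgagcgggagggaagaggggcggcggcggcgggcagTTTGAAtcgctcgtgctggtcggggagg
Spc25: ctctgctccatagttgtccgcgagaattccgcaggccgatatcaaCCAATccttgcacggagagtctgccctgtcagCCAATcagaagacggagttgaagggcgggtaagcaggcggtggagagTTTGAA
Bub1: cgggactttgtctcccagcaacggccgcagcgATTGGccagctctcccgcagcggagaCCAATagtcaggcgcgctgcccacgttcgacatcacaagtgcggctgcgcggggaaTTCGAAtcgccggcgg
Spdl1: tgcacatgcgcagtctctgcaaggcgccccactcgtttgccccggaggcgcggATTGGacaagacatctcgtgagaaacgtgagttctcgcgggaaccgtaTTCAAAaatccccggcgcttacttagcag
Ttk: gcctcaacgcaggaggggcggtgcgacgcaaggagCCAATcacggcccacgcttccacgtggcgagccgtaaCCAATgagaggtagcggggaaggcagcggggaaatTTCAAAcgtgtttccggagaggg
Cenpb: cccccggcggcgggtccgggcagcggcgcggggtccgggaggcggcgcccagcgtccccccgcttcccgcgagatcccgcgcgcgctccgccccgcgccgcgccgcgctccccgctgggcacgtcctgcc

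In the first 5 of these stretches a CHR match lies shortly after the start with a CCAAT box before it, which follows from how they were picked. Other genes with estimates as high lack such a pair, since no CHR match was found in the windows of Cenpi and Cenpe and no CCAAT box in that of Knl1. Cenpb has neither element in its stretch but has letters of an E2F-type site. Within 50 bases of the start on either side, a CHR match was present in 11 of 20 windows (55%) of genes that were called and in 4 of 23 windows (17.4%) of genes that were not. The same share was 5.31% over all 32851 RefSeq windows and 3.58% over the windows of genes tested. A CCAAT box within that distance stood in 13 of the 20 windows (65%) and in 6 of the 23 (26.1%), and in 13.6% of all windows. Letters of an E2F-type site (spelled TTCCCGC, with TTTGGCG as a variant form and with TTTCGCG as another variant form) stood there in 5 of the 20 and 4 of the 23 windows, and in 2.4% of all. Over the whole 300 bases the CHR shares were 60%, 34.8% and 19.2%. The motifs and the distance of 50 bases were chosen after the values had been seen, 4 genes have more than 1 window, and the counts are a description without a test. The other CHR matches near a start are shown here as stretches of 30 bases, with the CHR alone in capitals, for Knl1 (chr2:119047138-119047167, plus), Ndc80 (chr17:71526811-71526840, minus), Cenpw (chr10:30200548-30200577, minus), Sgo1 (chr17:53689271-53689300, minus), Bub1b (chr2:118598231-118598260, plus) and Cenpn (chr8:116921719-116921748, plus), which rose, and for Kntc1 (chr5:123749706-123749735, plus), Ska3 (chr14:57826160-57826189, minus), Cenpa (chr5:30666890-30666919, plus) and Bub3 (chr7:131560315-131560344, plus), which were not called.
Knl1: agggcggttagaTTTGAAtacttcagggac
Ndc80: gaaactttaaaaTTCAAAccgccttgggtt
Cenpw: tccggcggccaaTTCAAAtcgaccactcgg
Sgo1: gtaacgcagaatTTCGAAtgtggcggcggt
Bub1b: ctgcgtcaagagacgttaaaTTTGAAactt
Cenpn: gccattggcggcTTCAAAagcacctcggcg
Kntc1: ttctcccgccaaTTCAAAtcagtggcaggg
Ska3: gcctgcgcaggaTTCAAAtgtgtagcgcgt
Cenpa: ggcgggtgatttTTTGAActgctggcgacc
Bub3: gagccgttggcgTTCAAAatcagccaatga

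In the windows of Cenpw and Kntc1 the last base of a CCAAT box is the first base of the CHR match. A match is only a run of letters and says nothing of a bound factor.

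**Figure D3:**
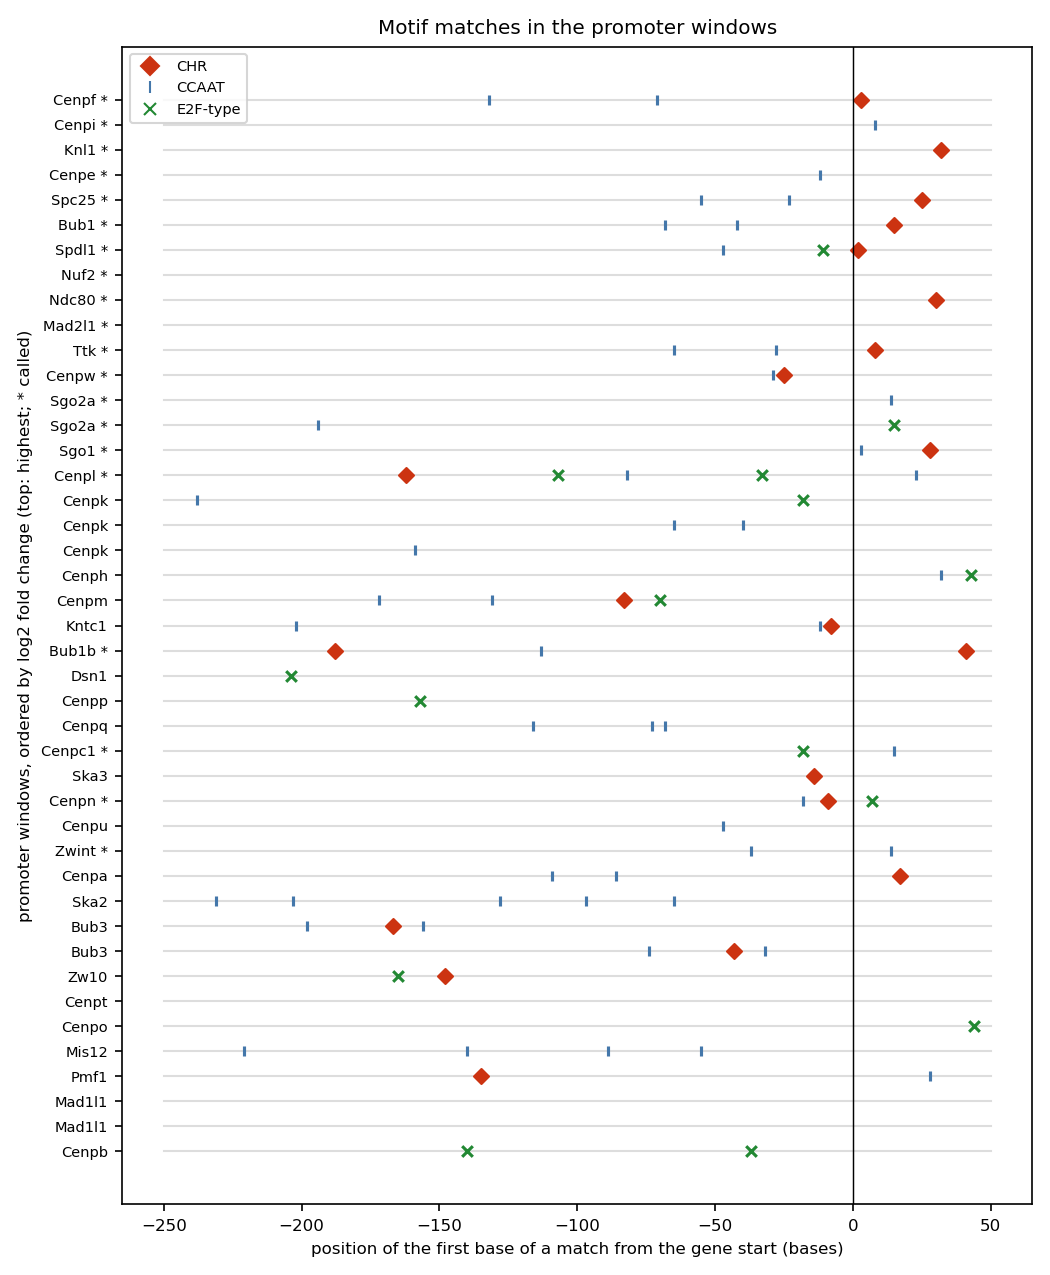
Positions of CHR (red diamonds), CCAAT (blue bars) and E2F-type (green crosses) matches in the 43 promoter windows, in bases from the gene start, ordered by log2 fold change with the highest on top and called genes starred. Red diamonds within 50 bases of the start are found in 11 of the 20 windows of called genes and in 4 of the other 23.

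The inner centromere group asks whether the part of the kinetochore that stays on chromosomes through the cell cycle moved with genotype. Of its 15 genes 5 rose, namely Cenpi, Cenpw, Cenpl, Cenpc1 and Cenpn, and the other 10 were not called. Beside these 5, 1.53% of all genes were called higher. The median log2 fold change was 1.01. Both CharmeKO pools lay above every CharmeWT pool for 14 of the 15, an order that 17.8% of all genes tested show. Without CharmeWT pool 1 or CharmeWT pool 3 none was called, where 1 and 0 of all genes were called higher. Without CharmeWT pool 2 there were 2, beside 1.02% of all genes. The median was 1.38 without CharmeKO pool 2 and 0.72 without CharmeKO pool 1. With the length and GC correction, where 1.53% of all genes were called higher, Cenpi and Cenpl were left and the median was 0.71. At an adjusted p under 0.05, met by 0.652% of all genes, Cenpi alone was left.

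Cenpa, which encodes the centromeric histone itself, measured 8.81, 13.0 and 7.29 FPKM in CharmeWT pools 1 to 3 and 15.2 and 15.5 FPKM in CharmeKO pools 1 and 2. Both CharmeKO pools were above the CharmeWT pools, but CharmeWT pool 2 came close to them. The log2 fold change of 0.66 ± 0.24 (SE) had an adjusted p of 0.197 and was not called. Cenpb encodes the protein that binds the CENP-B box of centromeric satellite DNA, and it was the most abundant of the 42 genes at 39.4, 44.4 and 39.6 FPKM in CharmeWT against 28.0 and 38.6 FPKM in CharmeKO. Only CharmeKO pool 1 was clearly low, and CharmeKO pool 2 lay just under the lowest CharmeWT pool. Its log2 fold change was -0.30 ± 0.19 (SE) with an adjusted p of 0.413, and it was called only without CharmeKO pool 2, at -0.56 with an adjusted p of 0.0376. Cenpb lies within the gene Spef1 on the same strand, for which at most 162 reads were counted in a pool. Cenpc1, whose product joins CENP-A chromatin to the outer layers, had 2.09, 2.28 and 1.91 FPKM in CharmeWT and 4.70 and 3.71 FPKM in CharmeKO. The groups were well apart, at a log2 fold change of 1.0 ± 0.22 (SE) and an adjusted p of 0.0731.

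The rest of the CCAN was uneven. Cenpi, a subunit of the CENP-H-I-K-M complex, had the highest log2 fold change of the group. It measured 1.33, 1.60 and 0.872 FPKM in CharmeWT and 5.84 and 2.96 FPKM in CharmeKO. Even the lower CharmeKO pool stood above the highest CharmeWT pool, and the log2 fold change was 1.79 ± 0.34 (SE, adjusted p = 0.0495). Cenpm of the same complex measured 5.49, 8.43 and 4.50 FPKM in CharmeWT and 16.2 and 10.7 FPKM in CharmeKO. With CharmeWT pool 2 high among the controls, its log2 fold change of 1.13 ± 0.30 (SE) had an adjusted p of 0.125. Cenph and Cenpk, the other 2 subunits, were estimated at 1.15 and 1.27 with adjusted p of 0.116 and 0.130. Cenpl and Cenpn form a heterodimer that reads CENP-A nucleosomes, and both rose. Cenpl had 0.860, 0.894 and 0.683 FPKM in CharmeWT and 2.15 and 1.82 FPKM in CharmeKO, a log2 fold change of 1.29 ± 0.26 (SE, adjusted p = 0.0623). Cenpn had 2.56, 2.83 and 2.13 FPKM against 5.22 and 4.60 FPKM, a log2 fold change of 0.97 ± 0.24 (SE, adjusted p = 0.0993), close to the limit.

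Cenpw and Cenpt encode the histone-fold pair that gives the Ndc80 complex a second anchor on the centromere, and of the pair Cenpw was called and Cenpt was not, a difference that was not tested. Cenpw had 1.71, 1.89 and 1.16 FPKM in CharmeWT and 4.89 and 3.14 FPKM in CharmeKO, a log2 fold change of 1.33 ± 0.29 (SE, adjusted p = 0.0765). Cenpt had 3.14, 3.38 and 2.58 FPKM in CharmeWT and 3.69 and 4.25 FPKM in CharmeKO, with a log2 fold change of 0.39 ± 0.23 (SE) and an adjusted p of 0.386. None of the 4 genes of the CENP-O-P-Q-U complex was called. Cenpp, Cenpq and Cenpu were estimated at 1.06, 1.01 and 0.96, and Cenpo at 0.37, all with both CharmeKO pools above the CharmeWT pools. In that complex CharmeKO pool 2 was closer to CharmeWT, with a median log2 ratio to the CharmeWT mean of 0.46 against 1.35 in CharmeKO pool 1.

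**Figure D4:**
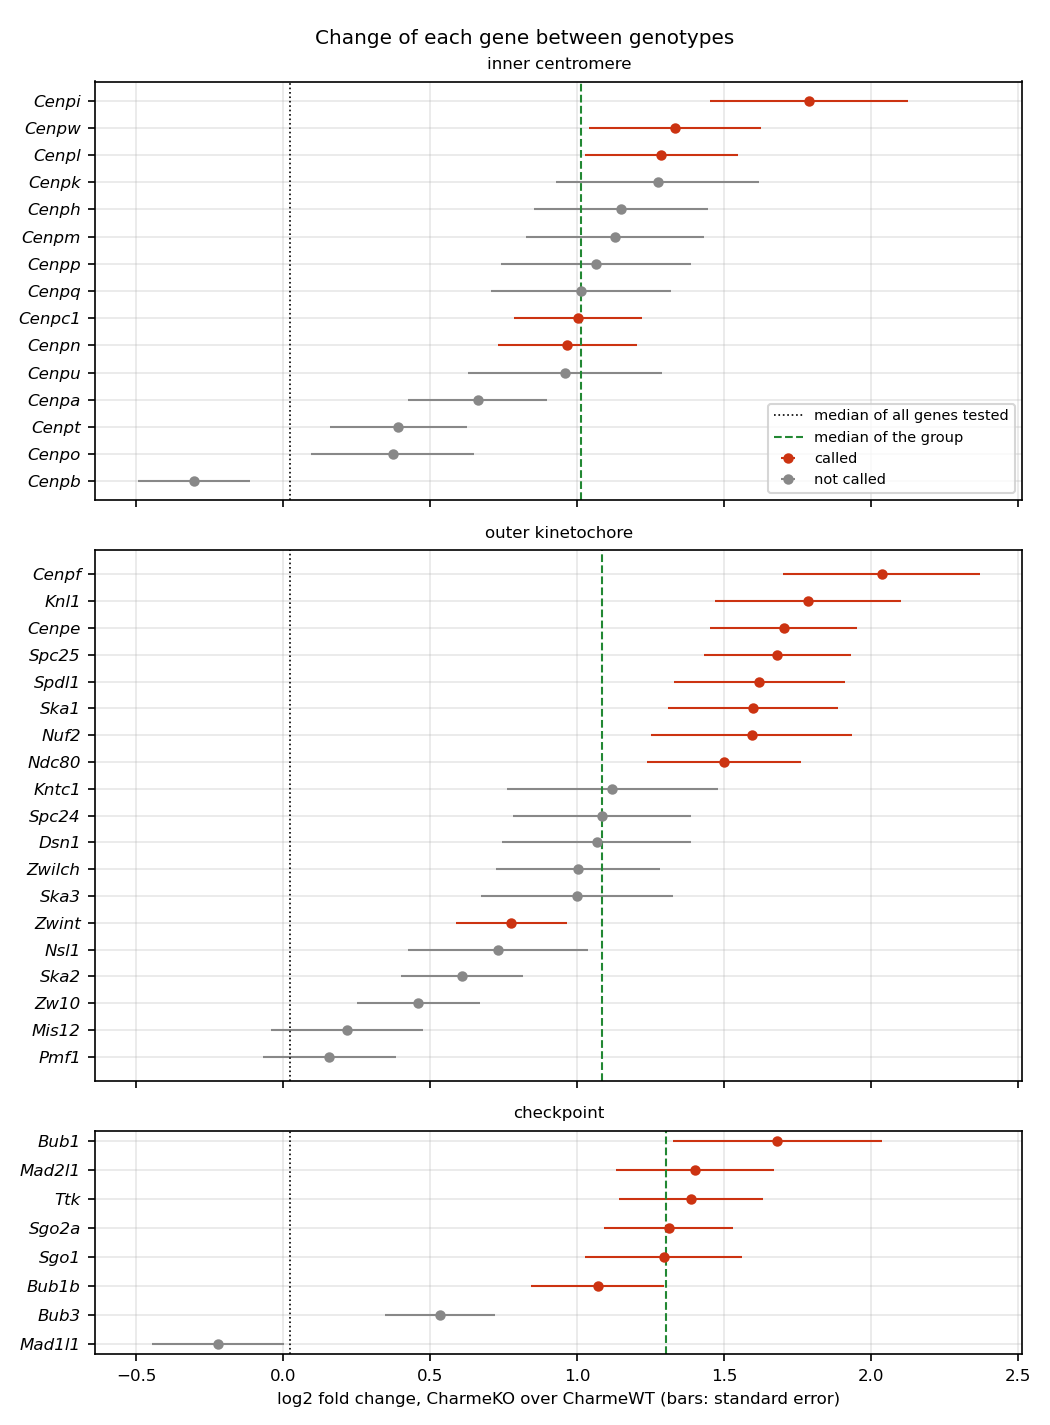
Log2 fold change of CharmeKO over CharmeWT for each gene with its standard error, by group, with called genes in red, others in grey, the median of all genes tested dotted and the median of each group dashed. The group medians are 1.01, 1.08 and 1.30, and the median of all genes is 0.02.

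The outer kinetochore group covers the microtubule-binding layer that forms in mitosis. Of its 19 genes 9 rose, Cenpf, Knl1, Cenpe, Spc25, Spdl1, Ska1, Nuf2, Ndc80 and Zwint, and none had a negative estimate. Beside these 9, 1.53% of all genes were called higher. The median log2 fold change was 1.08. For 17 genes both CharmeKO pools lay above every CharmeWT pool, an order that 17.8% of all genes tested show. Without CharmeWT pool 1 or CharmeWT pool 3 none was called, where 1 and 0 of all genes were called higher. The median was 1.5 without CharmeKO pool 2 and 0.72 without CharmeKO pool 1.

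Cenpe and Cenpf encode very large proteins of the outermost layer, a kinesin that carries chromosomes to the spindle equator and a coiled-coil protein that appears in G2 and mitosis. Cenpf had 801, 517 and 468 counts in CharmeWT and 2506 and 1650 counts in CharmeKO. On the per-length scale these were 2.52, 1.89 and 1.53 FPKM against 11.5 and 4.79 FPKM. Its log2 fold change of 2.04 ± 0.33 (SE, adjusted p = 0.0390) was the highest estimate of the 42 genes, and CharmeKO pool 1 stood far above CharmeKO pool 2. Cenpe measured 2.31, 1.54 and 1.80 FPKM in CharmeWT and 7.48 and 4.81 FPKM in CharmeKO. Here CharmeWT pool 1 rather than CharmeWT pool 2 was the high control, and the log2 fold change was 1.70 ± 0.25 (SE, adjusted p = 0.0336).

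The Ndc80 complex is the main microtubule coupler of the kinetochore, and 3 of its 4 genes rose, beside 1.53% of all genes called higher. Its median log2 fold change was 1.55, and that of all genes tested was 0.02. Spc25 measured 6.91, 6.78 and 4.83 FPKM in CharmeWT and 24.5 and 15.2 FPKM in CharmeKO. The CharmeKO pools were far from the controls, with a log2 fold change of 1.68 ± 0.25 (SE, adjusted p = 0.0343). Ndc80 had 1.82, 1.67 and 1.45 FPKM in CharmeWT and 5.93 and 3.42 FPKM in CharmeKO. It changed by a log2 fold change of 1.5 ± 0.26 (SE, adjusted p = 0.0423) from tightly grouped controls. Nuf2, its dimer partner, had 2.56, 3.53 and 1.83 FPKM against 10.9 and 5.06 FPKM, and its controls were more spread. The log2 fold change was 1.59 ± 0.34 (SE, adjusted p = 0.0697). Spc24, the partner of Spc25, was not called at 1.08 ± 0.30 (SE, adjusted p = 0.137), with CharmeWT pool 2, at 7.93 FPKM, close to CharmeKO pool 2, at 9.26 FPKM.

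Knl1 is the scaffold on which Bub proteins dock, and Zwint is its partner. Knl1 had 0.937, 0.913 and 0.875 FPKM in the CharmeWT pools, closely grouped, and 4.36 and 1.95 FPKM in CharmeKO. The pools of CharmeKO differed from each other more than those of CharmeWT, and the log2 fold change was 1.79 ± 0.32 (SE, adjusted p = 0.0433). Zwint was the second most abundant of the 42 genes, at 25.9, 21.9 and 20.6 FPKM in CharmeWT and 44.0 and 34.1 FPKM in CharmeKO. Its log2 fold change, 0.78 ± 0.19 (SE, adjusted p = 0.0981), was the lowest among the genes called, and it passed the limit narrowly.

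The Mis12 complex, which bridges the CCAN to Knl1 and Ndc80, had the lowest median log2 fold change of the outer complexes, 0.47, and none of its 4 genes was called. Pmf1 measured 8.04, 11.9 and 8.31 FPKM in CharmeWT and 9.21 and 11.8 FPKM in CharmeKO, with both CharmeKO pools inside the range of the controls. Mis12 itself measured 3.07, 3.62 and 4.86 FPKM against 4.69 and 4.26 FPKM, within the range of the controls. Their log2 fold changes were 0.16 ± 0.23 and 0.22 ± 0.26 (SE), with adjusted p of 0.729 and 0.668. Nsl1 and Dsn1 were estimated at 0.73 and 1.07, with both CharmeKO pools above the controls. Whether the complex differs from the others was not tested, since genes of a complex are not replicates.

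Ska1, Ska2 and Ska3 form a complex that tracks microtubule ends, and Ska1 alone of them was called. It had 1.51, 1.59 and 1.06 FPKM in CharmeWT and 4.83 and 3.61 FPKM in CharmeKO, a log2 fold change of 1.60 ± 0.29 (SE, adjusted p = 0.0450). Ska2 was more abundant in the controls, at 8.79, 7.21 and 7.86 FPKM, and measured 14.0 and 10.3 FPKM in CharmeKO. Its pools also did not overlap, but the log2 fold change was 0.61 ± 0.21 (SE) with an adjusted p of 0.187. Ska3, at 1.0 ± 0.33 (SE, adjusted p = 0.175), was higher in CharmeKO pool 2 than in pool 1.

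Spdl1 encodes Spindly, which with the Rod-Zw10-Zwilch (RZZ) complex brings dynein to kinetochores. It measured 1.68, 1.73 and 1.23 FPKM in CharmeWT and 5.95 and 3.61 FPKM in CharmeKO, and both CharmeKO pools were far above the controls. The log2 fold change was 1.62 ± 0.29 (SE, adjusted p = 0.0450). The 3 RZZ genes were not called. Zw10 and Zwilch were estimated at 0.46 and 1.0. Kntc1, which encodes Rod, had 1.22, 1.45 and 1.09 FPKM in CharmeWT and 3.98 and 1.51 FPKM in CharmeKO, so that CharmeKO pool 2 was barely above the highest control and the estimate of 1.12 ± 0.36 (SE, adjusted p = 0.168) rested on CharmeKO pool 1. Without that pool it was 0.27.

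The checkpoint group holds the genes of the signal that delays anaphase and of the shugoshins that protect centromeric cohesion. Of its 8 genes 6 rose, Bub1, Mad2l1, Ttk, Sgo2a, Sgo1 and Bub1b, and Bub3 and Mad1l1 were not called. Beside the 6, 1.53% of all genes were called higher. The median log2 fold change was 1.30. Without CharmeWT pool 1 or CharmeWT pool 3 none of the 8 was called, where 1 and 0 of all genes were called higher. At an adjusted p under 0.05, met by 0.652% of all genes, Ttk and Sgo2a were left. The length and GC correction gave a median of 1.03.

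Bub1, a kinase that marks the centromere for shugoshin, had 284, 320 and 181 counts in CharmeWT and 859 and 604 counts in CharmeKO. In FPKM these were 3.16, 4.16 and 2.10 against 14.0 and 6.21. CharmeKO pool 1 was far above the other pools, and the log2 fold change was 1.68 ± 0.36 (SE, adjusted p = 0.0689). Bub1b, which encodes BubR1 of the complex that inhibits the anaphase promoting complex, had 6.85, 9.13 and 5.90 FPKM in CharmeWT and 17.4 and 13.3 FPKM in CharmeKO. Its CharmeKO pools were closer to each other, with a log2 fold change of 1.07 ± 0.23 (SE, adjusted p = 0.0682). Bub3, the binding partner of both, was high in all pools, at 8.47, 8.96 and 7.59 FPKM in CharmeWT and 13.8 and 10.4 FPKM in CharmeKO. The pools did not overlap, but the log2 fold change was 0.53 ± 0.19 (SE) with an adjusted p of 0.195.

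Mad2l1 and Mad1l1 encode Mad2, the part of the signal that changes shape at the kinetochore, and Mad1, its template. Mad2l1 measured 2.72, 3.38 and 2.29 FPKM in CharmeWT and 9.57 and 5.23 FPKM in CharmeKO, a log2 fold change of 1.40 ± 0.27 (SE, adjusted p = 0.0521). Mad1l1 measured 6.95, 7.03 and 5.66 FPKM in CharmeWT and 4.73 and 6.47 FPKM in CharmeKO. The pools of Mad1l1 overlapped, and its log2 fold change was -0.22 ± 0.22 (SE, adjusted p = 0.611). Ttk, the kinase Mps1 that starts the signal, had closely grouped controls at 1.51, 1.46 and 1.37 FPKM, against 4.50 and 3.09 FPKM in CharmeKO. The log2 fold change was 1.39 ± 0.25 (SE, adjusted p = 0.0435). Both shugoshin genes, which guard cohesin at the centromere, rose. Sgo1 had 1.72, 1.84 and 1.23 FPKM in CharmeWT and 4.44 and 3.42 FPKM in CharmeKO, at 1.29 ± 0.27 (SE, adjusted p = 0.0663). Sgo2a had 2.35, 2.58 and 2.02 FPKM against 6.73 and 4.79 FPKM, at 1.31 ± 0.22 (SE, adjusted p = 0.0404).

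Across the groups the genes that were not called had the higher median level in CharmeWT. The median of the CharmeWT mean was 1.93 FPKM over the 20 genes called and 3.26 FPKM over the 22 others. Over the 42 genes the log2 fold change correlated with the log2 CharmeWT level at r = -0.50 (Spearman rho = -0.43) and with the GC percent of the longest transcript at r = -0.63 (rho = -0.57). With log2 exonic length r was 0.25 (rho = 0.26). With the length and GC correction 13 of the 42 genes were called, beside 1.53% of all genes called higher. The median log2 fold change was then 0.81 over all 42 genes and -0.03 over all genes tested. These are correlations across genes that share the same 5 libraries, and they are descriptions without a test. In CharmeWT the levels ran from 0.584 FPKM for Cenpo to 41.1 FPKM for Cenpb. Of the 41 pairs of neighbours in that order, 3 had CharmeWT pools that did not overlap, among them Cenpb over Zwint and Zwint over Cenpa.

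The CharmeKO pools were not alike. The level was higher in CharmeKO pool 1 than in CharmeKO pool 2 for 36 of the 42 genes, and the median log2 ratio to the CharmeWT mean was 1.40 in pool 1 and 0.81 in pool 2. By group the medians in pool 1 were 1.38 for the inner centromere, 1.51 for the outer kinetochore and 1.51 for the checkpoint genes. In pool 2 they were 0.73, 0.71 and 0.94. Both pools nonetheless ordered the genes in a similar way, with r = 0.80 and rho = 0.76 over the 42 genes. The ratios of both pools share the CharmeWT mean, so this is again a description. Pool 1 is also the pool with 21.07% mitochondrial counts. With mitochondrial genes and the salivary gland markers left out of the table the same 20 genes were called, beside 233 of 14857 genes called higher. Other transcripts of such cells stayed in, so this fit cannot show whether the calls depend on these differences between pools.

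**Figure D5:**
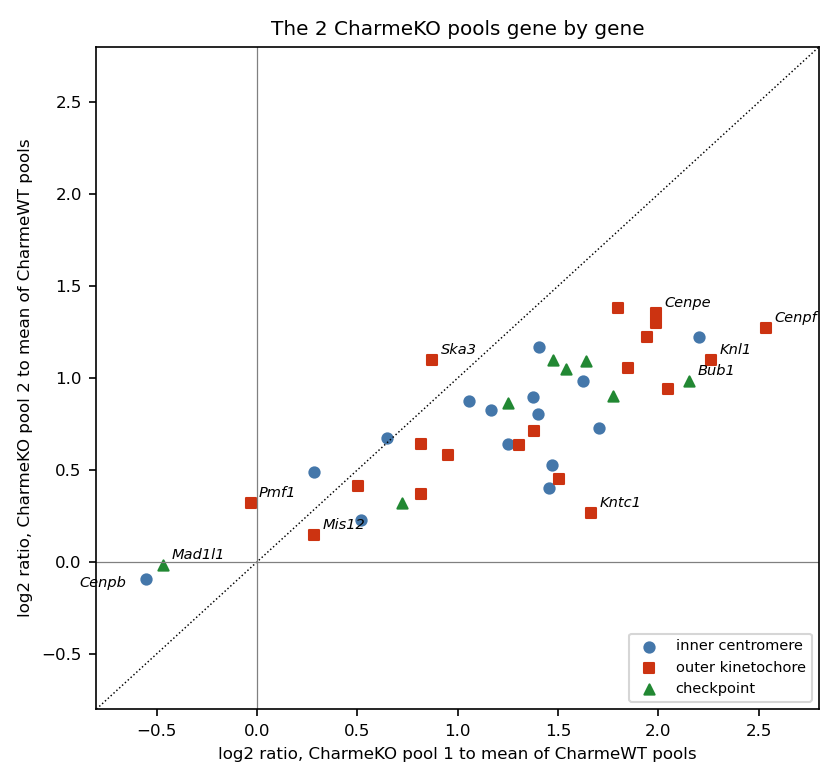
Log2 ratio of each gene to the mean of the CharmeWT pools in CharmeKO pool 1 (horizontal) and CharmeKO pool 2 (vertical), with a dotted line of equality and symbols by group. For 36 of the 42 genes the level is higher in pool 1, so that most points lie below the line.

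Other genes of the pathway give the setting. Of 33 further genes, which cover CENP-A loading, the remaining CCAN, checkpoint silencing, the anaphase promoting complex with its activators, that complex's targets and the chromosomal passenger complex, 4 rose, none fell, and the median log2 fold change was 0.48. Beside the 4, 1.53% of all genes were called higher. None of the 33 was called without CharmeWT pool 1 or CharmeWT pool 3, where 1 and 0 of all genes were called higher. Ccnb1, the cyclin B1 that must be degraded for anaphase, had 7.03, 9.99 and 4.61 FPKM in CharmeWT and 33.9 and 20.3 FPKM in CharmeKO, a log2 fold change of 1.91 ± 0.31 (SE, adjusted p = 0.0390). Birc5, which encodes survivin of the passenger complex, had 6.92, 8.43 and 5.02 FPKM against 21.6 and 16.0 FPKM, at 1.47 ± 0.24 (SE, adjusted p = 0.0392). Both genes had CharmeKO pools that lay above the controls by a wide margin.

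The anaphase promoting complex is the target of the checkpoint. Of 18 genes for its subunits, activators and E2 enzymes 1 was called, beside 1.53% of all genes called higher. Their median log2 fold change was 0.27. The gene called was Ube2c, the E2 enzyme that starts ubiquitin chains, with 16.5, 26.8 and 12 FPKM in CharmeWT and 43.0 and 43.7 FPKM in CharmeKO, at 1.24 ± 0.28 (SE, adjusted p = 0.0856). Among the core subunits, Anapc5 was the most abundant at 46.1, 41.3 and 35.6 FPKM in CharmeWT and 55.8 and 48.3 FPKM in CharmeKO, at 0.34 ± 0.18 (SE, adjusted p = 0.341). Anapc13 had 31.6, 28.8 and 26.4 FPKM against 33.1 and 28.3 FPKM, overlapping pools and a log2 fold change of 0.09 ± 0.18 (SE, adjusted p = 0.815), which took the other sign after the length and GC correction (-0.14) and without CharmeKO pool 1 (-0.03).

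To see whether the 42 genes moved more or less than other genes of dividing cells, each level was set against a list of 12 mitotic genes outside the group, such as Mki67, Top2a, Ccna2 and Cdk1. Of these 12, 10 rose, beside 1.53% of all genes called higher, and the median log2 fold change was 1.61. None of the 12 was called without CharmeWT pool 1 or CharmeWT pool 3. Relative to the median of that list in each pool, the inner centromere genes had a median log2 level of -2.07, -2.13 and -2.25 in CharmeWT and -2.77 and -2.49 in CharmeKO. The outer kinetochore genes had -1.59, -1.62 and -1.36 against -1.92 and -2.13, and the checkpoint genes had -0.88, -0.90 and -0.80 against -1.39 and -1.31. All 3 groups were thus lower against the cycling list in both CharmeKO pools than in any CharmeWT pool, by differences of -0.48, -0.50 and -0.49, while the SD among CharmeWT pools was 0.09, 0.14 and 0.05. With 3 against 2 pools the exact two-sided permutation test cannot go below p = 0.1. Gene by gene, 25 of the 42 were lower by this measure in both CharmeKO pools than in any CharmeWT pool. None was higher in both than in any CharmeWT pool. Of all genes tested 89.6% were lower, since a gene that rises less than the list falls against it. The median log2 fold change of the 42 genes, 1.08, lay between the 1.61 of the cycling list and the 0.02 of all genes.

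Markers of other cell types also differed between the pools. Of all 14880 genes tested, 2654 were higher in both CharmeKO pools than in any CharmeWT pool, and 2710 were lower. The 5 erythroid genes were all higher in both CharmeKO pools than in any CharmeWT pool, with sums of 745 to 1121 CPM in CharmeWT and 1403 to 2075 CPM in CharmeKO, and CharmeKO pool 1 had the higher sum. The 5 skeletal muscle genes were likewise all higher, with sums of 5.0 to 5.96 CPM against 17.2 to 47.8 CPM, here with CharmeKO pool 2 the higher. Of 7 salivary gland genes 5 were higher in both CharmeKO pools, and of 3 epicardial genes 2 were, with sums of 21.7 to 74.9 CPM against 93.8 to 105.5 CPM. Mural cell genes summed to 364 to 460 CPM in CharmeWT and 267 to 286 CPM in CharmeKO, with 2 of 4 lower. Sums of endothelial genes (730 to 930 against 722 to 763 CPM), fibroblast genes (2533 to 2922 against 2354 to 3553 CPM), macrophage genes (43.4 to 69.4 against 45.9 to 82.5 CPM) and thymus and T cell genes (0.679 to 1.67 against 0.212 to 1.16 CPM) overlapped between genotypes. The part of these cells in the kinetochore result was not tested.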

How the data were processed

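Polyadenylated RNA of pooled PN2 hearts was sequenced from a stranded mRNA kit. The authors trimmed the paired reads with Cutadapt and Trimmomatic, aligned them to GRCm38 with STAR and deposited raw counts per gene of Ensembl release 87, read on the reverse strand. The deposited counts, for 49671 genes in 5 pools, were used as they are. A deposited FPKM table, written with decimal commas, was not used. Positions and exonic lengths came from GENCODE M21, which matched 49411 of the genes, and 23 tested genes without a length were given 1 kb. FPKM and CPM were computed from the counts with TMM-scaled library sizes.

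The filter asked for 10 or more counts in 2 or more pools, and genotype was tested with edgeR 4.0.16 (quasi-likelihood test, R 4.3.3) and Benjamini-Hochberg adjustment over 14880 genes. Calls needed an adjusted p under 0.1 and 1 FPKM or more on average in either genotype. The methods of the study name the likelihood ratio test, which was run as an alternative beside DESeq2 1.42.0. Standard errors are the size of the log2 fold change over the square root of F. Hearts of littermates were pooled by genotype, and the study describes its pools as biologically independent. The labels do not tie a pool to a litter, and p-values measure the spread between these pools. The fit was tested on simulated counts. The members and lists were chosen with earlier results of these data known. Values per pool are given for the genes called, the 3 most abundant genes of each group, genes with a negative estimate and, of the pathway list, those called and the most abundant, of which 1 is not reported here. Cenpt, Mis12, Kntc1 and Charme were added after their values were seen. No gene of the 42 has a near-identical full copy in the annotation. The longest match was between Sgo2a and Kctd18 on the opposite strand, over 47.8% of the Sgo2a transcript, which strand-specific counting keeps apart.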

Additional observations from a re-analysis of the deposited data

How the results depend on the processing

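Of 576 values of named genes under an alternative, 454 kept direction and side of the threshold, 111 lost and 8 gained the call, and 3, all of Anapc13, changed sign: -0.14 with the length and GC correction, -0.18 with the block and that correction, and -0.03 without CharmeKO pool 1, where pools left out in turn gave -0.0291 to 0.189. The likelihood ratio test called 933 genes, 10 inner centromere, 14 outer kinetochore and 10 pathway genes, and DESeq2 1014, 10, 14 and 10. At an adjusted p under 0.05 there were 111 genes, 10 of the 42, 1 of them inner centromere and 2 checkpoint. With the length and GC correction 361 genes were called, 227 of them higher. Of the 42 there were 13, 2 of them inner centromere, and the medians were 0.71 for the inner centromere and 1.03 for the checkpoint.

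Replicate numbers were shared between genotypes, but the labels name no litter or day behind them. Deviations of same-numbered pools correlated at 0.137 and 0.0778 over 14880 genes. The deviations of CharmeKO pool 1 mirror those of CharmeKO pool 2, since they are taken from the mean of the 2. These values therefore cannot settle whether the numbers mark pairs. The main fit did not take them as pairs, and a fit with a replicate block was run beside it. With the replicate block 11 of the 42 were called, 1 inner centromere and 3 checkpoint, beside 210 of all genes, 150 of them higher. With the block and the length and GC correction 33 genes were called, and of the 42 the 2 outer kinetochore genes Cenpe and Cenpf, with 0 inner centromere, 0 checkpoint and 0 pathway genes and medians of 0.56, 0.81 and 0.89 for the inner, outer and checkpoint groups. At an unadjusted p under 0.05 that fit still held 23 of the 42 and 1523 genes.

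With each pool left out in turn, the calls ran from 0 to 4606 for all genes, 0 to 34 for the 42, 0 to 13 for the inner centromere, 0 to 14 for the outer kinetochore, 0 to 7 for the checkpoint and 0 to 15 for the pathway genes. The medians ran from 0.72 to 1.38, 0.72 to 1.5 and 0.95 to 1.5 for the inner, outer and checkpoint groups. The levels relative to the cycling list ran from -0.62 to -0.34, -0.61 to -0.40, -0.54 to -0.45 and, over all 42, -0.66 to -0.40. The lone pool left in CharmeKO was assumed to vary like the others. Depth limits Cenpu most, the gene with fewer than 50 counts in a pool.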
